A study of Drosophila melanogaster with 6 samples.

Results

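The maltases of the fruit fly are the 10 genes Mal-A1 to Mal-A8, Mal-B1 and Mal-B2. The family was chosen with earlier results of these data known. Its probe sets were taken by name: every one whose single gene symbol is one of these genes. Each gene had 1 probe set, so 10 probe sets of 18952 on the array, for 10 of 11982 named genes, are described. Total RNA from whole flies was measured on 6 Affymetrix arrays, 3 from females on a high-fat diet (HFD) and 3 from females on a regular diet (RD). All flies were w1118 adult females, a white-eyed laboratory strain; they were put on their food as young adults, kept in normal oxygen for 7 days, and were 10 to 12 days old at the end. The HFD held coconut oil at 20% weight to volume, and the RD was Jazz-Mix food. Whether replicate samples came from separate groups of flies is not stated in the labels, and the p-values therefore rest on a spread that may be technical.

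Maltases are alpha-glucosidases: they release glucose from the non-reducing ends of maltose, sucrose and short starch fragments, the last step before sugar enters the cells of the gut. In insects they act after amylase, and in the fly the Mal-A genes are known chiefly from the midgut; Mal-A1, Mal-A2 and Mal-A3 carry the older names LvpH, LvpD and LvpL, for larval visceral proteins. The Mal-A genes lie side by side in 1 cluster on chromosome arm 2R, and Mal-B1 and Mal-B2 form a pair on arm 2L.

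After a week on the high-fat diet, 4 of the 10 maltases were lower, 1 was higher and 5 did not pass the test. Mal-A7, Mal-A3 and Mal-A6 were 1.94-fold, 1.92-fold and 1.82-fold lower on HFD, and Mal-A4 was 1.50-fold lower. Mal-A5 was 1.20-fold higher, a call that was lost when each array was centred on its median. Neither gene of the Mal-B pair passed. Calls are at an adjusted p of 0.05 (limma, Benjamini-Hochberg adjustment over 11261 tested probe sets), and all 10 maltases were bright enough to be tested, with all 60 signals above 27.9, the signal that the mean of a probe set had to exceed. Of all tested probe sets, 19.5% were called, 6.63% lower and 12.9% higher on HFD, against 40% and 10% of the maltases. Since the family was picked with earlier results of these data known, this contrast is no test of the family. The median log2 fold change, HFD minus RD, was -0.42 over the maltases, of which 9 lay below 0, and 0.0083 over all tested probe sets. These are RNA levels of whole flies, in which fewer cells of a type and less RNA per cell cannot be told apart.

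Mal-A3 had signals of 125, 139 and 133 on the HFD arrays, against 224, 236 and 314 on the RD arrays. The highest HFD array was well under the lowest RD array, and the 3 HFD values lay within a narrow band. Mal-A3 had a log2 fold change of -0.94 ± 0.14 (SE; adjusted p = 0.00426, limma), the smallest p of the family. Only 101 of the 11261 tested probe sets had a lower log2 fold change. Its neighbour Mal-A4 had signals of 147, 149 and 155 on HFD, against 209, 206 and 266 on RD. The diets did not overlap for this gene either, and RD array 3 was again the highest. Mal-A4 had a log2 fold change of -0.58 ± 0.12 (SE; adjusted p = 0.0135, limma).

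Mal-A6 had signals of 461, 303 and 548 on the HFD arrays, against 678, 742 and 912 on the RD arrays. All HFD values were below all RD values, but both diets were spread widely, with HFD array 2 far below the other two. The log2 fold change of Mal-A6 was -0.86 ± 0.21 (SE; adjusted p = 0.0252, limma). Mal-A7 had signals of 157, 159 and 195 on HFD, against 250, 313 and 457 on RD. Here the spread was on the RD side, where RD array 3 stood highest and RD array 1 came nearest to the HFD arrays. The log2 fold change of Mal-A7 was -0.96 ± 0.21 (SE; adjusted p = 0.0172, limma), the lowest in the family.

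Mal-A5 went the other way. Its signals were 1574, 1483 and 1579 on the HFD arrays, against 1285, 1333 and 1232 on the RD arrays. Every HFD array was above every RD array, and the SD within a diet, pooled over both diets, was the smallest of the family. The signal averaged 1545 ± 53.7 on HFD and 1283 ± 50.5 on RD (SD, n = 3 each), a log2 fold change of 0.27 ± 0.054 (SE; adjusted p = 0.0133, limma). Among all tested probe sets this rise was ordinary in size: the 95th percentile of log2 fold changes was 0.80. Array medians were higher on HFD (60.7 to 63.8) than on RD (52.8 to 55.3). With each array centred on its median, Mal-A5 stood at 0.059 (adjusted p = 0.512, limma). For the 5 maltases with no overlap between diets, the shares of all tested probe sets without overlap were 18.7% with every HFD array below the RD arrays, as for 4 of the 10 maltases, and 23.2% with every HFD array above, as for Mal-A5.

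**Figure D1:**
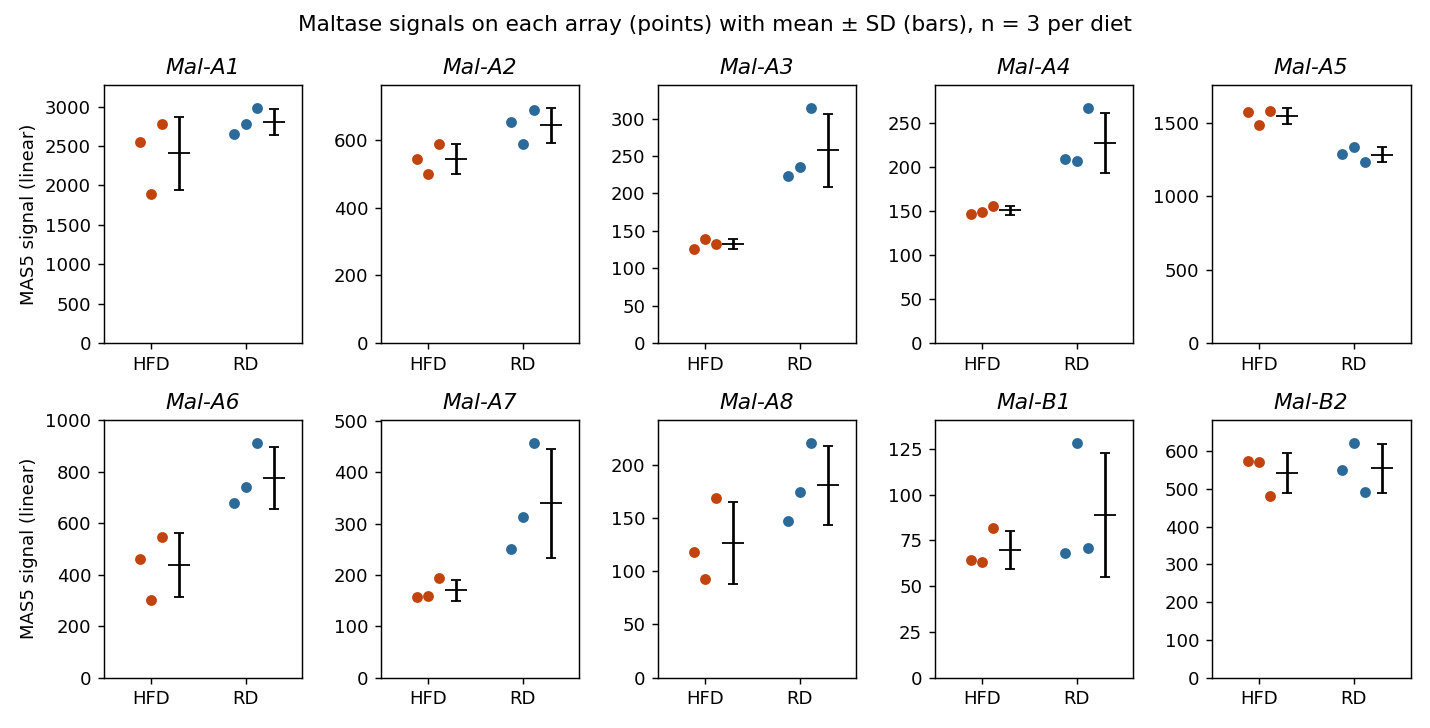
MAS5 signal (linear scale, from 0) of the 10 maltases on each array, HFD left and RD right in each panel, with 3 points per diet in the order of the replicate numbers and black bars for mean ± SD. The HFD points lie below all RD points for Mal-A3, Mal-A4, Mal-A6 and Mal-A7 and above them for Mal-A5, and the diets overlap in the other panels.

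Mal-A5 was also set against each of the 4 genes that fell as the log2 ratio of 2 probe sets within an array. These pairs were picked for their opposite calls, so the ratios restate those calls array by array and are given with no test. The log2 ratio of Mal-A5 over Mal-A3 was 3.64, 3.41 and 3.56 on HFD, against 2.52, 2.50 and 1.97 on RD. That ratio was higher on HFD by 1.21, and the ratios over Mal-A4, Mal-A6 and Mal-A7 were higher by 0.85, 1.13 and 1.22. In each of the 4 pairs no HFD array overlapped an RD array. Centring or multiplying a whole array hardly moves such a ratio, but quantile normalization does: the difference was then 0.99 for Mal-A5 over Mal-A4 and 1.35 over Mal-A3.

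Mal-A1, Mal-A2 and Mal-A8 did not pass. Mal-A1 had signals of 2551, 1892 and 2784 on HFD, against 2649, 2779 and 2979 on RD. One HFD array lay inside the RD range and another, HFD array 2, far below it, and the 95% interval of the log2 fold change ran from -0.54 to 0.067 (adjusted p = 0.235, limma). Mal-A2 had signals of 545, 501 and 590 on HFD, against 653, 589 and 689 on RD. The diets overlapped by about 1 unit of signal, between HFD array 3 and RD array 2, and the interval ran from -0.44 to -0.038 (unadjusted p = 0.0254; adjusted p = 0.0915, limma). Mal-A8, the last gene of the cluster, had signals of 118, 92.6 and 169 on HFD, against 147, 174 and 220 on RD. HFD array 3 reached into the RD range, and the interval, -1.07 to -0.0023, also held changes as large as those of Mal-A3 and Mal-A7 (unadjusted p = 0.0492; adjusted p = 0.139, limma). Without HFD array 2, the log2 fold change of Mal-A1 was -0.071 in place of -0.24, and that of Mal-A8 -0.33 in place of -0.53. After median centring all 3 genes passed as lower, Mal-A1 at -0.44, Mal-A2 at -0.45 and Mal-A8 at -0.74 (adjusted p = 0.0239, 0.00862 and 0.0270, limma), and Mal-A8 also passed without HFD array 3 (-0.76, adjusted p = 0.0466).

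The Mal-B pair showed no change that could be told from the spread. Mal-B1 had signals of 64.3, 63.0 and 81.7 on HFD, against 68.3, 128 and 70.7 on RD. It was the dimmest of the maltases, and RD array 2 stood apart from the other 2 RD arrays, which lay inside the HFD range. The interval of its log2 fold change, -0.87 to 0.27, was the widest of the family (adjusted p = 0.414, limma). Mal-B2 had signals of 575, 571 and 481 on HFD, against 550, 621 and 491 on RD. The diets were mixed throughout, with an interval of -0.28 to 0.22 (adjusted p = 0.864, limma), which leaves out falls of the size of Mal-A3, Mal-A4, Mal-A6 and Mal-A7. The probe set of Mal-B2 is of the kind that reads several transcripts of 1 gene. The maltases are related in sequence, and whether any probe set also binds RNA of another member was not tested.

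**Figure D2:**
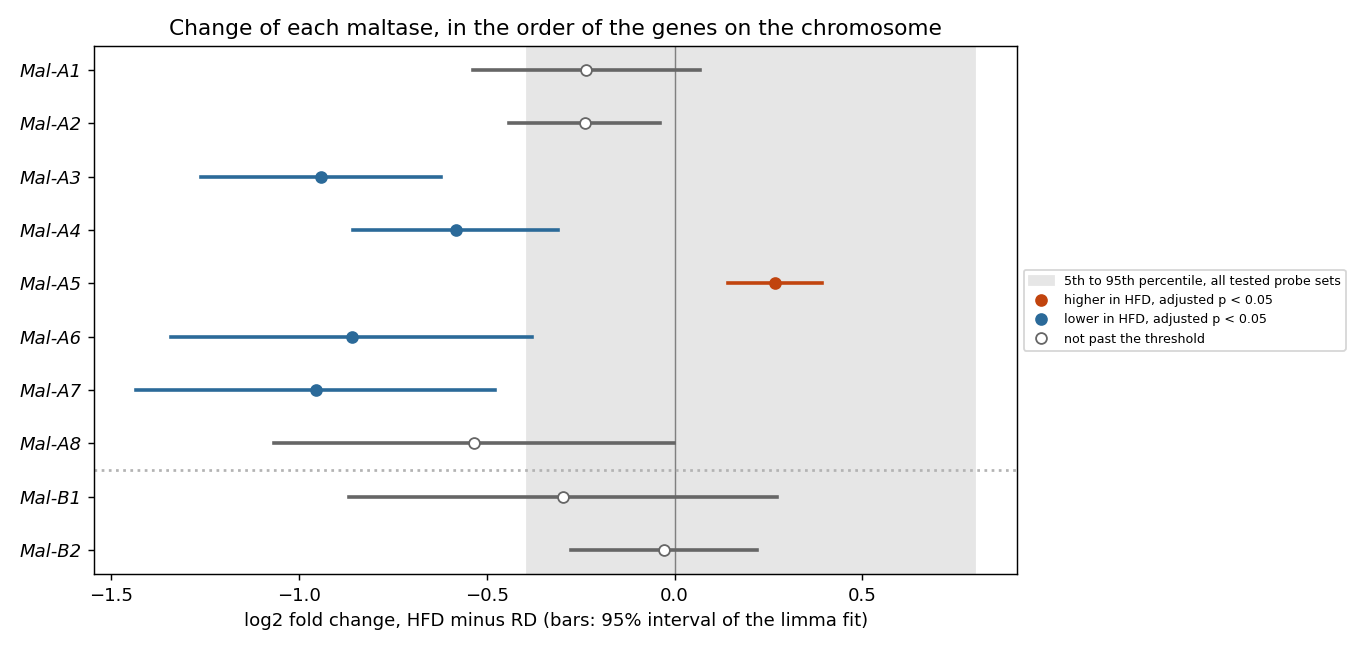
Log2 fold change, HFD minus RD (horizontal axis), of each maltase, from top to bottom in the order of the genes on arm 2R and, under the dotted line, arm 2L; bars are 95% intervals of the limma fit and the grey band spans the 5th to 95th percentile of all tested probe sets, -0.39 to 0.80. The estimates of Mal-A3, Mal-A4, Mal-A6, Mal-A7 and Mal-A8 lie left of the band, and the point of Mal-A5 lies right of 0 between genes that fell.

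Along arm 2R the cluster runs from Mal-A1 to Mal-A8 in numerical order with no other gene of the Release 6 gene table between them. The 4 genes that fell are 2 adjacent pairs, Mal-A3 with Mal-A4 and Mal-A6 with Mal-A7, and Mal-A5, which rose, lies between the pairs. The outer genes Mal-A1, Mal-A2 and Mal-A8 did not pass as reported. Their estimates were also below 0, and that of Mal-A8 (-0.53) was near that of Mal-A4 (-0.58). After median centring these outer genes were called lower too, and Mal-A5 stood at 0.059 (adjusted p = 0.512, limma). The pattern of pairs therefore rests on the threshold and the scaling. Next to Mal-A1 lies Cyp4e1, a cytochrome P450 gene whose span overlaps that of Mal-A1 in the table; it had signals of 278, 288 and 307 on HFD, against 236, 234 and 249 on RD. The diets did not overlap for Cyp4e1 (log2 fold change 0.28 ± 0.080, adjusted p = 0.0464, limma), but it did not pass when any 1 of the 6 arrays was left out (0.0708 to 0.134); it was named after its values were seen. So was Cyp4e2, another P450 gene on the far side of Cyp4e1, which had signals of 781, 883 and 906 on HFD, against 1011, 1480 and 1242 on RD, with no overlap and a change in the other direction (-0.52 ± 0.13, adjusted p = 0.0283, limma). Cyp4e2 passed without RD array 1 but not with any other single array left out (adjusted p = 0.0524 to 0.102). After median centring Cyp4e1 stood at 0.068 (adjusted p = 0.605), and with the control transcripts' 3'/5' ratio, described further on, in the model, Cyp4e1 stood at 0.28 (0.284) and Cyp4e2 at -0.18 (0.403). The gene at the other end, mtt, was under the filter, and the Mal-B pair lies within the span of the phosphodiesterase gene Pde1c, of which 2 of 3 tested probe sets rose, by 1.00 and 1.23 on the log2 scale (adjusted p = 0.00737 and 0.00953, limma; 0.71 and 0.61, with 0.155 and 0.0902, under the control ratio). Of the other genes beside Mal-B1 and Mal-B2, none was analysed here.

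Within a diet, the same array was often the highest or the lowest for several Mal-A genes. On RD, array 3 was the highest of the 3 for 7 of the 8 Mal-A genes, the exception being Mal-A5, while it was the highest for 17.0% of all tested probe sets. On HFD, array 3 was the highest for 7 of the 8, the exception being Mal-A3, against 56.4% of all tested probe sets, and array 2 was the lowest for 5 of the 8, against 25.6%. For 9 of the 10 maltases the spread was above the median of probe sets of like signal: the pooled SD within a diet was 0.35, 0.33 and 0.37 on the log2 scale for Mal-A6, Mal-A7 and Mal-A8, against a median of 0.095 for probe sets of a signal like that of Mal-A6 and 0.14 for those like Mal-A7 and Mal-A8 (4 groups of equal size by mean signal). Mal-A5, with an SD of 0.054 against a median of 0.074, was the exception. Across the 6 arrays Mal-A1 and Mal-A2 had the most similar profiles of any pair of maltases (root mean square difference of the centred log2 signals 0.12), followed by Mal-A3 and Mal-A7 (0.15).

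**Figure D3:**
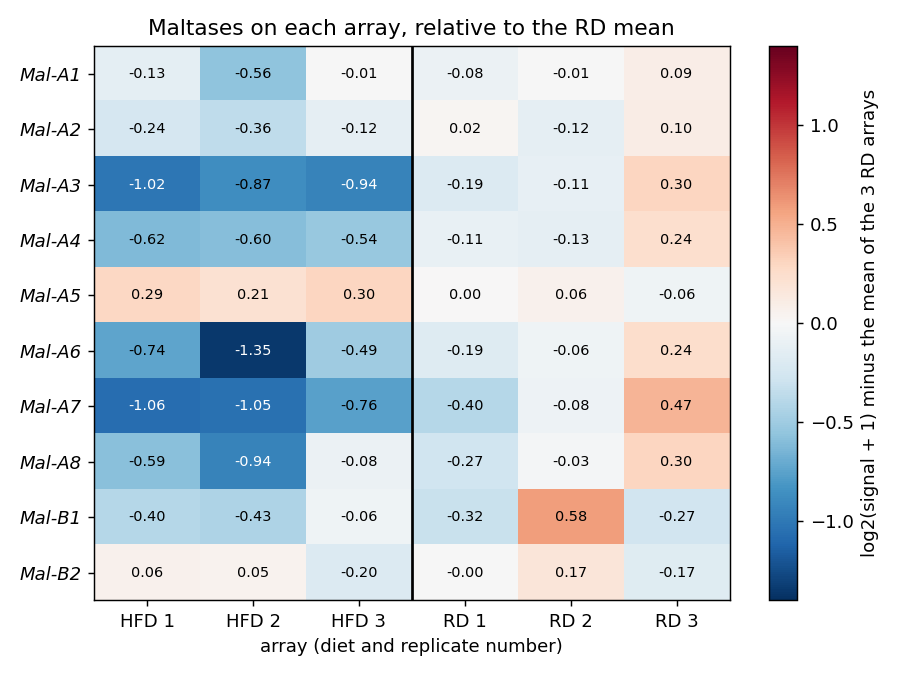
Log2(signal + 1) of each maltase on each array (columns, HFD left of the black line and RD right of it) minus the mean of the 3 RD arrays, with red above and blue below that mean. Array HFD 2 is the lowest HFD array for Mal-A1, Mal-A2, Mal-A5, Mal-A6 and Mal-A8, and array RD 3 is the highest RD array for every Mal-A gene but Mal-A5.

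The state of the RNA was read from control transcripts on the array, of which the actin control separated the diets. For the actin control, signal at the 3' end was divided by signal at the 5' end, a ratio that rises as RNA or its labelled copy gets shorter. It was 9.29, 8.35 and 8.93 on HFD, against 7.85, 4.90 and 5.69 on RD (two-sided exact permutation p = 0.1, the smallest possible). The ratios of GAPDH and eIF-4a overlapped between diets (two-sided exact permutation p = 0.2 each). So did the mean log2 ratio over the 3 controls, with RD array 1 at 2.52 above HFD array 2 at 2.49 (two-sided exact permutation p = 0.2). When the model also held this ratio, averaged on the log2 scale over the 3 controls, no maltase passed, and 266 of the 11261 tested probe sets did. The estimates then stood at -0.84 for Mal-A3, -0.57 for Mal-A4, -0.90 for Mal-A6, -0.73 for Mal-A7 and 0.27 for Mal-A5, with adjusted p-values of 0.0783, 0.157, 0.202, 0.264 and 0.128 (limma). Apart from that model, Mal-A3 and Mal-A4 kept their calls at 0.05 in each of the 17 other settings, and all 4 genes that fell kept their sign in all 18. Mal-A7 did not pass without HFD array 1 (adjusted p = 0.0656) or HFD array 2 (0.0545), and Mal-A6 did not pass without HFD array 1 (0.0647), RD array 2 (0.0542) or RD array 3 (0.0847). Mal-A5 did not pass without RD array 3 (adjusted p = 0.0632) or when each array was centred on its median (log2 fold change 0.059, adjusted p = 0.512), a scaling that moved the median log2 fold change over the tested probe sets by -0.21.

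**Figure D4:**
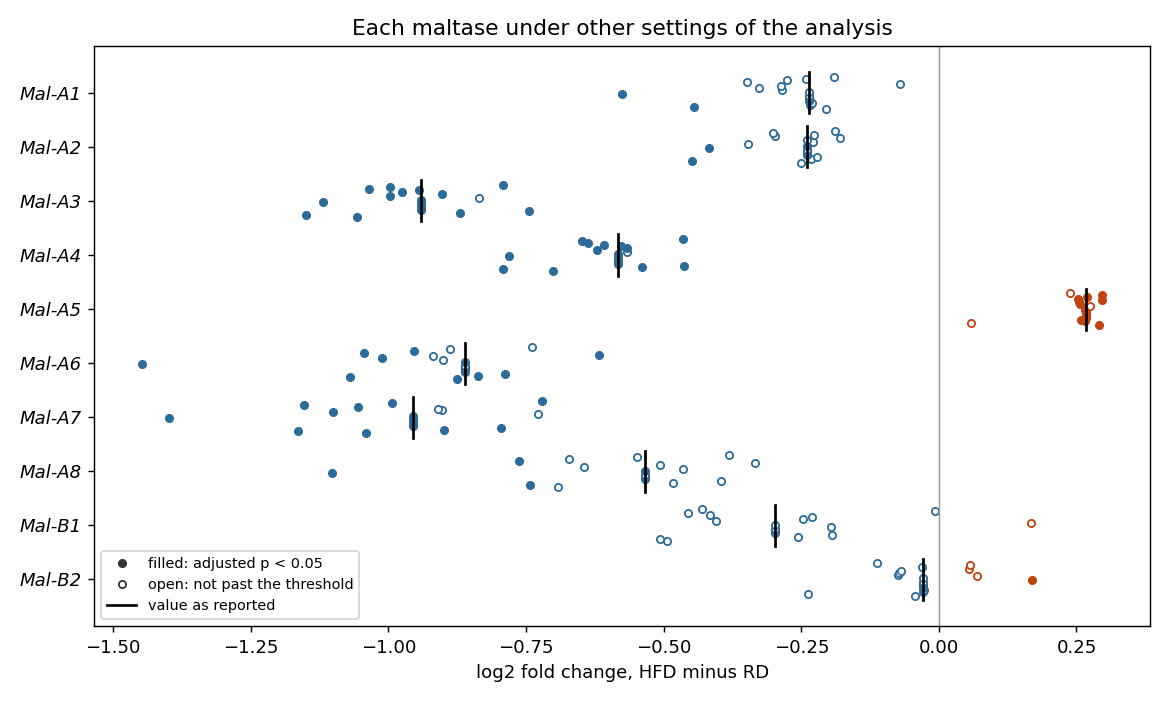
Log2 fold change, HFD minus RD, of each maltase under each other setting of the analysis (points, red above 0 and blue below, filled where the adjusted p was under 0.05) and as reported (black lines). The 4 genes that fell stay left of 0 in every setting, between -1.45 and -0.46, Mal-A5 stays right of 0, and Mal-B1 and Mal-B2 cross it.

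A mixed list of other carbohydrate enzymes and related genes was set beside the maltases. Those tested were Amyrel, tobi, Treh, GCS2alpha, AGBE and CD98hc. Not all of them digest dietary sugar, and Treh and AGBE are also counted in the storage list below. Of these 6 genes, 2 fell and 4 did not pass, with a median log2 fold change of -0.12. After median centring 5 of the 6 were called lower, with a median of -0.33. The glucosidase gene tobi, a target of insulin and glucagon-like signalling in the fly, had signals of 101, 109 and 187 on HFD, against 172, 405 and 360 on RD. It passed (-1.20 ± 0.35, adjusted p = 0.0466, limma) although RD array 1 lay within the HFD range. Amyrel, an amylase-related gene, had signals of 39.5, 34.98 and 50.9 on HFD, against 58.5, 66.8 and 83.9 on RD, with no overlap (-0.73 ± 0.19, adjusted p = 0.0336, limma). Neither gene passed without HFD array 1, HFD array 2, RD array 2 or RD array 3, with adjusted p-values of 0.123 to 0.152 for tobi and 0.0794 to 0.120 for Amyrel. With the control ratio in the model, neither passed: tobi stood at -0.48 (adjusted p = 0.614) and Amyrel at -0.64 (0.324). The amylase genes Amy-p and Amy-d were not analysed here.

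Calls among sugar transport genes and in the glycogen and trehalose (storage) list went in both directions, but those of the storage list were hexokinase genes only. Of 8 transport genes tested, each by its brightest probe set, nebu (-0.33 ± 0.075) and the trehalose transporter gene Tret1-1 (-0.24 ± 0.072) fell and none rose. The brightest of 3 Glut1 probe sets, for a glucose transporter gene, did not pass (0.092 ± 0.11), but the other 2, named after their values were seen, were higher on HFD, by 0.71 ± 0.16 and 0.68 ± 0.19 (adjusted p = 0.0176 and 0.0430, limma). Of 6 glycogen and trehalose genes tested, the hexokinase gene Hex-C fell (-0.43 ± 0.082) and Hex-A rose (0.33 ± 0.099). Pgm1, Tps1, Treh and AGBE did not pass (adjusted p = 0.0634, 0.504, 0.980 and 0.0839, limma). The calls of Tret1-1 (adjusted p = 0.0492, limma) and Hex-A (0.0493) lay just under the threshold. Without HFD array 1, HFD array 3, RD array 2 or RD array 3, neither these 2 nor nebu passed, and Hex-A also did not pass without HFD array 2, while Hex-C passed whichever array was left out. With the control ratio in the model, none of the 4 passed, with nebu at -0.14, Tret1-1 at -0.11, Hex-A at 0.095 and Hex-C at -0.35. The list medians were 0.068 for transport and -0.15 for storage, against -0.42 for the maltases; no test compared the lists. After median centring 4 of the 6 storage genes were called lower and none higher (median -0.36), and the transport median was -0.14; after quantile normalization it was -0.064.

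Several regulators of sugar use were higher. Mondo and its partner Bigmax form a sugar-sensing transcription factor in the fly; sug and cbt code for zinc finger proteins and daw for an activin ligand, all of which that factor is known to induce, and Dawdle signalling and Sugarbabe are linked to the repression of digestive carbohydrases by dietary sugar. Of 11 genes of this list, all tested, 6 rose, 2 fell and 3 did not pass, with a median log2 fold change of 0.24. The gene sug had signals of 473, 534 and 399 on HFD, against 293, 299 and 329 on RD (0.60 ± 0.11, adjusted p = 0.0105, limma). For cbt they were 2142, 2199 and 2322 on HFD, against 1596, 1485 and 1471 on RD (0.55 ± 0.055, adjusted p = 0.00165, limma). Both genes were higher on every HFD array than on any RD array. The ligand gene daw rose (0.47 ± 0.091, adjusted p = 0.0113, limma), and so did Med, which codes for the shared Smad partner (0.54 ± 0.14, adjusted p = 0.0294, limma). Named after their values were seen, Mondo (0.24 ± 0.056) and bigmax (0.26 ± 0.056) rose, and Mad (-0.29 ± 0.065), a Smad of the BMP branch, and put (-0.17 ± 0.049), a receptor shared by both branches, fell. The receptor gene babo (-0.014 ± 0.069) and the Smad gene Smox (0.21 ± 0.078, adjusted p = 0.0933, limma) of the activin branch did not pass. These genes were also named after their values were seen. With 1 array left out, the regulators that rose numbered 2 to 7, with 4 without HFD array 2, 3 without HFD array 3 and 2 without RD array 3, and those that fell 0 to 1. Med did not pass without HFD array 1, HFD array 3, RD array 2 or RD array 3, nor daw without RD array 3, nor Mondo and bigmax without HFD array 2, HFD array 3 or RD array 3. Mad did not pass without HFD array 2, RD array 2 or RD array 3, and put passed in none of the 6 fits. After median centring 3 rose, sug, cbt and Med, while Mondo and bigmax stood at 0.036 and 0.049. With the control ratio in the model cbt alone passed, at 0.48, while sug stood at 0.68, daw at 0.46, Mondo at 0.23, bigmax at 0.25, Med at 0.19, Mad at -0.22 and put at -0.12; no sign turned among the 8 called genes in any of the 18 settings.

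**Figure D5:**
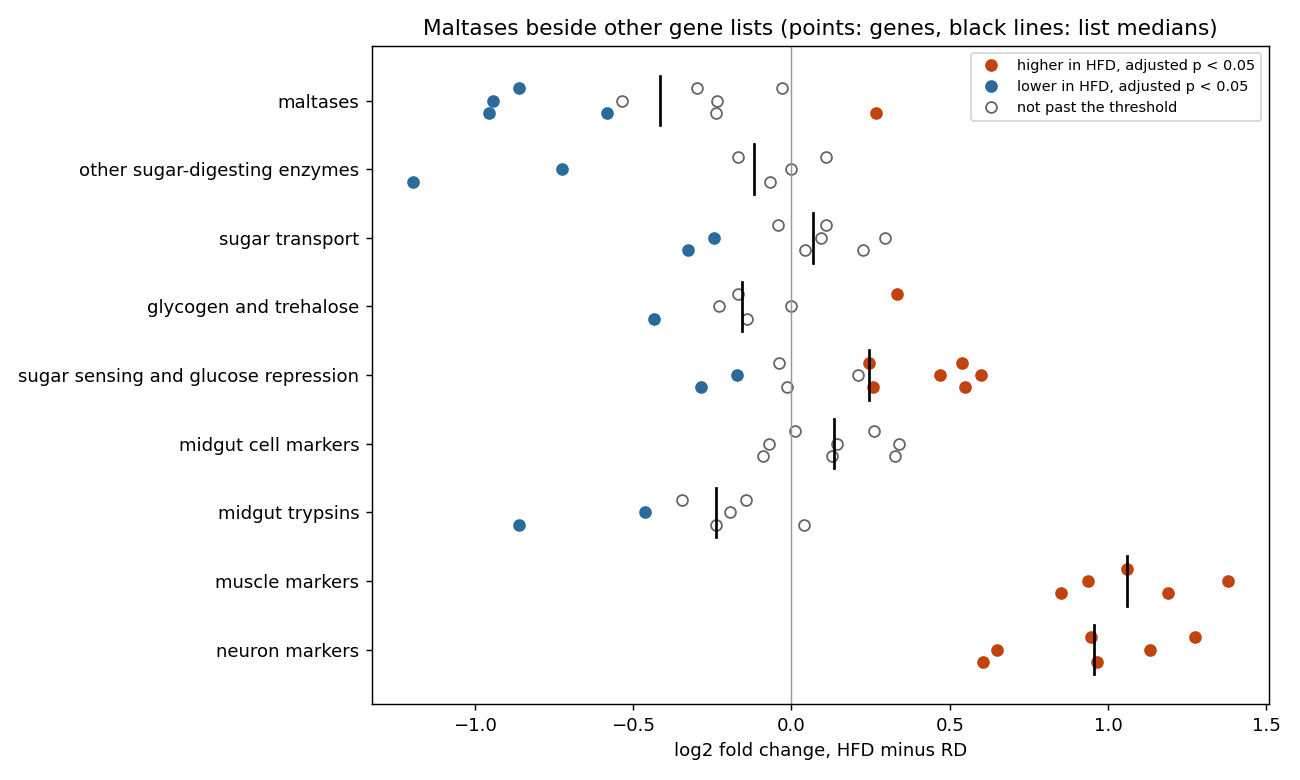
Log2 fold change, HFD minus RD (horizontal axis), of each tested gene of the maltase family and of 8 other lists (points coloured by call; black lines are list medians). The maltases and the midgut trypsins lie mostly left of 0, the midgut cell markers lie on both sides of it with no call, and the muscle and neuron markers all lie right of 0.

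Markers of the tissue that makes the Mal-A enzymes were compared as well. Of 8 genes that mark midgut cells, none passed in either direction (limma), and 0 had an unadjusted p under 0.05, with a median log2 fold change of 0.14 and a summed signal of 7023 to 8109 on HFD, against 6427 to 8846 on RD. None of these markers was at 0 on all arrays, and their summed signals overlapped between diets. The brightest of them, cad, averaged 2644 on HFD and 2776 on RD, and so weighs heavily in the sums. Whether these genes are expressed only in midgut in whole females was not tested, so the sums are no measure of midgut content. Of the midgut markers, 2 rose without RD array 1 and 1 without HFD array 1, and their median was -0.042 without RD array 3. After median centring 1 was called lower and the median was -0.073, with the control ratio in the model it was -0.17, and array weights called 3 higher and 1 lower. Of 7 midgut trypsin genes, which digest protein, epsilonTry (-0.86 ± 0.16) and thetaTry (-0.46 ± 0.11) fell and 5 did not pass. Trypsin genes that fell numbered 1 without HFD array 1, HFD array 2 or RD array 3 and 4 without HFD array 3; epsilonTry passed in each of these fits, thetaTry only without RD array 1, and neither passed with the control ratio in the model (-0.52 and -0.29). Median centring called 6 of the 7 trypsins lower (median -0.45), as did array weights (-0.31), and quantile normalization called 3. The summed trypsin signal was 23527 to 26718 on HFD, against 27519 to 31798 on RD. Most of it came from alphaTry and betaTry, which averaged 10600 and 9946 on HFD, against 11692 and 11370 on RD. Neither of these passed (adjusted p = 0.167 and 0.0628, limma). All 5 muscle markers and all 6 neuron markers tested rose, with medians of 1.06 and 0.96, as did the 3 photoreceptor markers (1.01). Of 6 fat body markers, 5 fell (median -0.46). They changed unevenly: Lsp2 stood at -5.90, Gnmt at -2.96, apolpp at -0.52, Yp2 at -0.40 and Yp3 at -0.23. Yp1, at -0.089, did not pass. Of 8 ovary and eggshell markers, 4 fell and 1 rose (median -0.26). The summed signal of the muscle markers was 6449 to 7599 on HFD, against 2934 to 4120 on RD, and that of the neuron markers 1700 to 1848 on HFD, against 818 to 1196 on RD. With the control ratio in the model, 2 muscle, 1 neuron and 2 photoreceptor markers rose, 2 fat body markers fell, and no ovary marker passed; after median centring 7 ovary markers were called lower and none higher. The part of such shifts in the maltase values was not tested.

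The genes whose profiles over the 6 arrays came nearest to each called maltase were taken from 8678 other named genes, by the root mean square difference of centred log2 signals. Nearest to Mal-A3 were LManI (0.069), Jon25Biii (0.088) and CG9682 (0.098), and nearest to Mal-A4 were l(2)34Fc, CG18180 and CG10505, at 0.045 to 0.050. For Mal-A6 they were Cyp4s3 (0.12), CG4363 (0.13) and Amyrel (0.15), and for Mal-A7 CG17192 (0.055), CG7542 (0.089) and sona (0.11). The nearest profiles to Mal-A5 were those of CG6435, f-cup and CG8839, at 0.029 to 0.031. Since diet sets much of each profile, such likeness describes these 6 arrays and no more.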

How the data were processed

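Each deposited value is the linear intensity of 1 probe set on 1 array, computed with MAS5 per the submitters' processing notes, whose version and scaling are not given in the sources used here. RNA was extracted with Trizol and cleaned on RNeasy columns, per the labels' protocols. Array medians were 60.7 to 63.8 on HFD and 52.8 to 55.3 on RD, arrays of 1 diet correlated across probe sets at 0.977 to 0.986 (Pearson's r of log2 values), and the number of arrays limits precision.

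The 183 AFFX controls were left out and 1 was added before log2, so fold changes are on the log2(signal + 1) scale. Probe sets with a mean above the 40th percentile were kept, 11261 of 18769. The 2 diets were set against each other in a two-sided limma fit (version 3.58.1, R 4.3.3; eBayes followed the trend of variance with intensity), with Benjamini-Hochberg adjustment over all tested probe sets. Standard errors are those of this fit. A permutation test planned for the ratios between maltases is not reported, since the pairs were picked by their calls. The fit was tested on simulated data. Names came from the array annotation, updated by gene ID (402 probe sets with several symbols were not named); chromosome arms and gene order came from the Release 6 table, and no coordinates are given.

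The members and lists were chosen with earlier results of these data known. From each pathway list, up to 4 genes past the threshold were named by absolute log2 fold change, or 2 by p where none passed; for each called maltase, the 3 nearest profiles; and the genes beside the clusters. Exceptions are stated in the text. For each gene of a list the brightest probe set was used. Other settings were a scaling by quantiles or by the array median, a pseudocount of 16 or 50, the filter left out or set at the 60th percentile, eBayes with no trend or in its robust form, weighted arrays, a block for replicate number, the 3'/5' ratio of control transcripts as covariate, arrays left out, and thresholds of 0.01 and 0.10. Figures were drawn with matplotlib 3.10.9 in Python 3.11.15.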

Additional observations from a re-analysis of the deposited data

How the results depend on the processing

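The count of maltases lower on HFD, 4, stayed within 1.5 times in 15 of 20 settings and that of maltases higher, 1, in 15 of 20. Median centring gave 7 lower and 0 higher, array weights (an estimate that stopped before convergence) 7 and 2, the control 3'/5' ratio 0 and 0, and an adjusted p of 0.01 gave 1 and 0. Leaving out 1 array, those lower numbered 2 to 5, with 2 without HFD array 1, and those higher 0 to 1, with 0 without RD array 3. All probe sets called, 2196, became 790 at 0.01, 4995 with median centring, 1361 with the stricter filter (which left Mal-A8 and Mal-B1 untested), 6129 with array weights and 266 with the control ratio; without 1 array they numbered 1008 to 2707. Calls of all probe sets were 34.0% lower and 66.0% higher as reported, 48.0% and 52.0% after quantile normalization and 80.5% and 19.5% after median centring. Mal-B2 changed sign with array weights (0.17, adjusted p = 0.0478), the control ratio (0.070), and without HFD array 3 (0.055) or RD array 2 (0.057), with a range of -0.11 to 0.057 over single arrays left out, and Mal-B1 with the control ratio (0.17); the cause was not tested. Mal-A6 also lost its call without the trend and with robust eBayes (adjusted p = 0.0511 and 0.05005). Mal-A8 passed with median centring, array weights, the replicate block and without HFD array 3, Mal-A2 with the first 3 of these (adjusted p = 0.0389 with the replicate block) and Mal-A1 with the first 2. Arrays of the 2 diets share replicate numbers, and deviations of same-numbered arrays correlated at 0.072, 0.10 and 0.027. Those of arrays with unlike numbers correlated at -0.19 to 0.12. The labels do not say whether a number marks a shared vial, batch or day, and correlations this weak cannot settle it. With the replicate block 2560 probe sets, 6 maltases lower and 1 higher were called. The differences in the log2 ratio of Mal-A5 over the genes that fell were 0.70 to 1.42 over 11 settings. Since the pairs were picked for opposite calls, their kept sign is no further support. The difference in the mean log2 control ratio, HFD minus RD, ran from 0.25 to 0.54.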
